A study of Mus musculus with 39 samples.

Results

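Liver transcripts of the 5-day regimen were compared between 24 hrs after the last session and 1.5 wks later, to ask which of the differences between aggressor-exposed (AggE) and control (Ctrl) mice seen at 24 hrs had gone by 1.5 wks, and whether it was the AggE or the Ctrl livers that had moved. The members were chosen by their labels: 18 of the 39 livers of the series belong to the 5-day regimen, with 5 AggE and 4 Ctrl mice at 24 hrs and another 5 AggE and 4 Ctrl mice at 1.5 wks. No mouse was measured at both times, so every movement described here is between mice.

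All 18 were male C57BL6/J mice, housed 1 to a cage. AggE mice spent 6 hrs a day for 5 days in a mesh cage inside the home cage of an aggressive SJL male, with brief attacks in each session. Ctrl mice had sham sessions of equal length and number, in which they were caged the same way in clean bedding, away from the aggressors, and were not fed. The Ctrl condition therefore shares the isolation and the food deprivation with AggE and is not an untouched baseline. Every mouse was also placed behind a partition in an aggressor's cage shortly before its liver was taken, and the mice taken at 1.5 wks were older, so that time since the sessions and age cannot be told apart. The labels disagree in places. At 1.5 wks every AggE title and 1 Ctrl title carry the number that the titles of the 10-day regimen carry, the latter also with other letters, and a line describing AggE livers at 24 hrs names 1 day, while all other labels of these mice give 5 days. That Ctrl mouse is number 4 at 1.5 wks.

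The liver answers injury and infection with the acute phase response, in which interleukin-6 acting through STAT3, interleukin-1 acting through NF-kB, and glucocorticoids make hepatocytes secrete serum amyloid A, pentraxins, orosomucoids and protease inhibitors. Metallothioneins, small proteins that bind zinc and copper, are raised by the same hormones and by metals. Fasting works on another set of liver genes: free fatty acids activate the nuclear receptor PPARA, whose best known mouse targets are the Cyp4a fatty acid hydroxylases.

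Each array gave the log2 ratio of liver RNA, in Cy5, over a common mouse reference RNA, in Cy3, called the level below. A shift is the mean level at 24 hrs minus that at 1.5 wks within AggE or within Ctrl, and the recovery difference is the AggE minus Ctrl difference at 24 hrs less the same difference at 1.5 wks, which equals the AggE shift minus the Ctrl shift. All 3 are differences on the log2 scale. Tests were limma contrasts over 18259 genes, and a gene is said to rise or fall, or to have moved, where its p, adjusted by Benjamini-Hochberg over all probes tested, was 0.05 or less. SEs and 95% intervals rest on 1 spread per gene shared by the 8 groups of the fit, not on the mice compared alone. Levels of different genes are not compared, because each probe has its own scale.

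After adjustment the recovery difference was called for 16 genes, which is 0.0876% of those tested, with 11 positive and 5 negative. Of these, 12 moved in AggE mice only by this rule, Mt1 and Cyp4a31 in Ctrl mice only, and Apoa4 and Retsat in both. Of the 12, 5 had no group with all its arrays well above background, and the class of Ifi27l2b and Fgl1 turned to both in some alternatives. The 10 that were also past 2-fold were 8 positive genes, led by secreted acute phase proteins, and 2 negative genes of lipid and retinoid metabolism. With the looser rule of 2-fold and an unadjusted p of 0.05, 24 genes were positive (0.131% of all) and 40 negative (0.219%). Without the Ctrl mouse of uncertain title 17 genes were called after adjustment and 106, in place of 64, by the looser rule. The balance of the looser rule depended on single mice: it was 23 positive and 83 negative without that mouse and 29 and 84 without Ctrl mouse 2 at 1.5 wks, but 24 and 20 without Ctrl mouse 3, 27 and 24 without Ctrl mouse 1 and 28 and 22 without AggE mouse 2 at that time. Among the 24, 14 moved in AggE only, 4 in Ctrl only, 5 in both and 1 in neither. Among the 40 the classes turned round, with 4 in AggE only, 24 in Ctrl only, 6 in both and 6 in neither, and the Ctrl shift was the larger of the pair for 34 of them. Over all 18259 genes 2452 moved in AggE only, 669 in Ctrl only and 1777 in both, and the Ctrl shift was the larger for 8561. Tested alone, the 6949 genes with a probe well above background held 2695 that moved in AggE and 2728 in Ctrl. Shares over all genes, as given below, are therefore low for lists of well expressed genes.

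**Figure D1:**
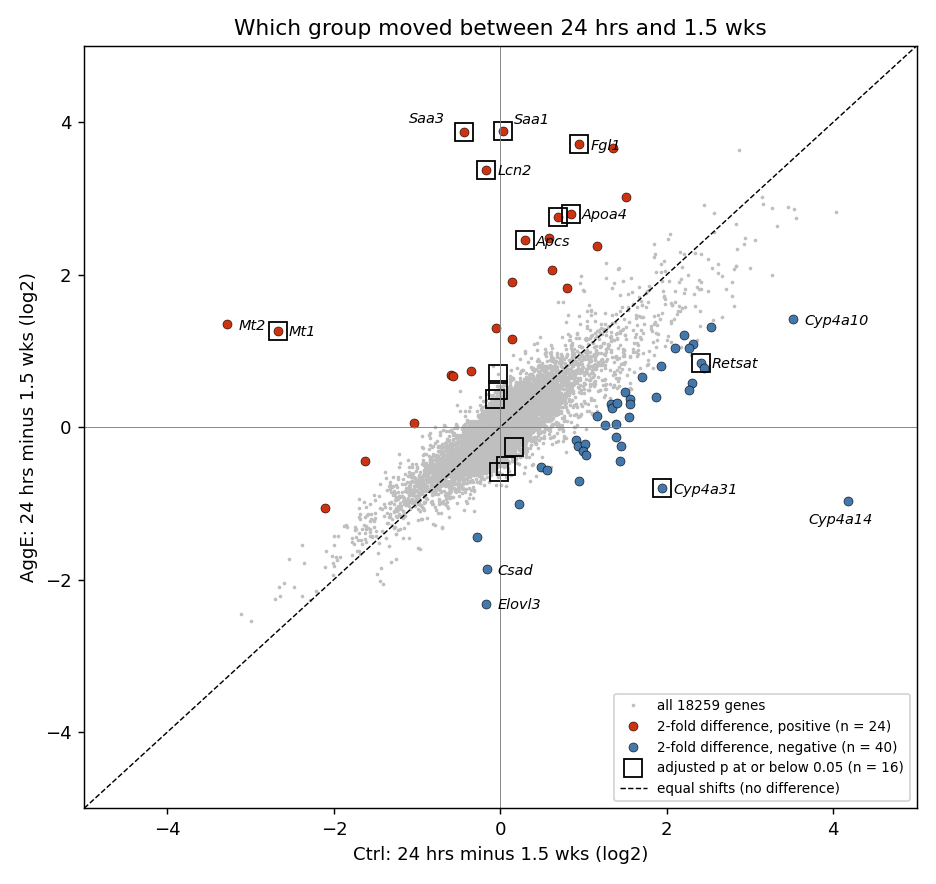
Each point is a gene, with the Ctrl shift (24 hrs minus 1.5 wks, log2) on the x axis and the AggE shift on the y axis. Grey points are all 18259 genes, red and blue points the 24 positive and 40 negative genes past 2-fold and an unadjusted p of 0.05, squares the 16 genes called after adjustment, and the dashed line marks equal shifts. The red genes Saa3, Saa1, Lcn2 and Apcs lie high on the y axis with a Ctrl shift between −0.44 and 0.29, whereas most blue genes lie to the right, with the larger shift in Ctrl mice.

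Of the 28 acute phase genes measured, 8 were higher in AggE than in Ctrl livers at 24 hrs after adjustment, beside 1.61% of all genes, and those described next overlapped the Ctrl levels at 1.5 wks. Saa3, an inducible serum amyloid A gene, measured 3.63, 4.14, 1.41, 4.51 and 3.41 in the AggE mice at 24 hrs. It measured −0.81, −0.85, −0.34 and −1.25 in their Ctrl mice, −0.12, −0.31, −0.37 and −0.68 in Ctrl mice at 1.5 wks, and −0.48, −0.91, −0.74, 0.48 and −0.63 in AggE mice at 1.5 wks. All 5 AggE mice at 24 hrs lay above the 13 others. The recovery difference was 4.32 (SE 0.54, adjusted p = 8.18e-05), made of an AggE shift of 3.88 (adjusted p = 5.25e-09) and a Ctrl shift of −0.44 (adjusted p = 0.618). AggE exceeded Ctrl 18.8-fold at 24 hrs, and at 1.5 wks differed from it by −0.09, with a 95% interval of −0.87 to 0.70.

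Saa1, the main circulating serum amyloid A of the mouse, showed the same arrangement. AggE mice at 24 hrs measured 5.85, 6.28, 5.27, 6.01 and 5.00, against 1.87, 1.76, 2.69 and 1.37 in Ctrl. At 1.5 wks Ctrl mice measured 1.84, 3.13, 1.32 and 1.28 and AggE mice 0.95, 1.25, 1.27, 4.29 and 1.26, so that 1 AggE mouse stood nearer to the AggE levels of 24 hrs than to its own group. The difference of 3.85 (SE 0.62, adjusted p = 0.00277) lay entirely in the AggE shift of 3.88, with a Ctrl shift of 0.03. A second Saa1 probe gave 2.86 with an unadjusted p of 0.00201. Saa1 and Saa2 are near-identical in sequence, and how far these probes read both was not tested.

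Lcn2, a lipocalin that captures bacterial siderophores, was well above background in all 5 AggE mice at 24 hrs, in 1 AggE mouse at 1.5 wks and in no Ctrl mouse at either time. The AggE values at 24 hrs were 3.73, 3.32, 1.94, 4.75 and 2.26, and every other mouse lay between −0.38 and 0.10. In mean Cy5 signal AggE livers exceeded Ctrl livers at least 6.28-fold at 24 hrs, as no Ctrl array was well above background. This figure makes no allowance for the spread between mice or for the slides. The fitted recovery difference was 3.55 (SE 0.47, adjusted p = 0.000117), with an AggE shift of 3.38. Its size depended on the processing, from 2.85 without normalization between arrays to 7.17 with the submitters' value table.

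The secreted proteins Fgl1, a fibrinogen-like hepatocyte product, and Apcs, the serum amyloid P pentraxin, followed. Fgl1 measured 4.58, 4.47, 3.89, 5.35 and 4.27 in AggE mice at 24 hrs, 1.81, 1.11, 1.91 and 1.58 in Ctrl, and between 0.13 and 1.19 in all 9 mice at 1.5 wks. Its difference was 2.76 (SE 0.49, adjusted p = 0.0101). The AggE shift of 3.71 exceeded it, since the Ctrl mean was also 0.95 higher at 24 hrs, a Ctrl shift that missed the threshold (adjusted p = 0.0933) but passed in 3 of 32 alternatives (adjusted p = 0.0065 to 0.0369). Apcs measured 3.44, 2.83, 1.93, 3.45 and 2.72 in AggE mice at 24 hrs and between 0.09 and 0.70 in the 13 others. Its difference was 2.16 (SE 0.36, adjusted p = 0.004), with an AggE shift of 2.45 and a Ctrl shift of 0.29 (adjusted p = 0.616).

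Ifi27l2b, of a family of small interferon-inducible proteins, and Apoa4, an apolipoprotein of triglyceride-rich particles, complete the positive genes carried mainly by AggE. Ifi27l2b measured 4.09, 3.27, 2.74, 3.18 and 3.34 in AggE mice at 24 hrs, and 1.26, 0.44, 1.09 and 1.44 in Ctrl. At 1.5 wks it lay between 0.08 and 1.18 in both groups. The difference was 2.06 (SE 0.32, adjusted p = 0.00161), the AggE shift 2.75 and the Ctrl shift 0.69 (adjusted p = 0.0526). That Ctrl shift passed in 10 of the 32 alternatives, among them without Ctrl mouse 2 at 24 hrs (0.89, adjusted p = 0.0125), without AggE mice 1 or 3 at 24 hrs or 1 or 2 at 1.5 wks (0.0309 to 0.0452), and without background correction (1.30, adjusted p = 0.0062). Apoa4 measured 3.61, 2.75, 2.98, 2.96 and 2.42 in AggE mice at 24 hrs, 0.98, 0.46, 1.77 and 0.65 in Ctrl, and at most 0.20 in any mouse at 1.5 wks, where only 1 array of each group was well above background. Both groups fell with time here, by a shift of 2.80 in AggE and 0.84 in Ctrl (adjusted p = 0.0307), and the difference of 1.96 had an adjusted p of 0.0129. The Ctrl shift was 0.57 without Ctrl mouse 3 at 24 hrs (adjusted p = 0.217), and its adjusted p lay between 0.0558 and 0.0859 without Ctrl mouse 1 at 24 hrs or Ctrl mice 1, 3 or 4 at 1.5 wks. With levels near background at 1.5 wks, sizes varied with the processing. The Ctrl shift was 1.74 without background correction (adjusted p = 0.00113) and 3.48 with processed signals (0.000365). It was 3.58 with the submitters' value table (0.00051) and 0.88 without normalization between arrays (0.371). The AggE shifts there were 4.04, 5.19, 5.01 and 2.20. Both genes were above all 13 other mice in every AggE mouse at 24 hrs, as 2.54% of all genes were above or below them.

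**Figure D2:**
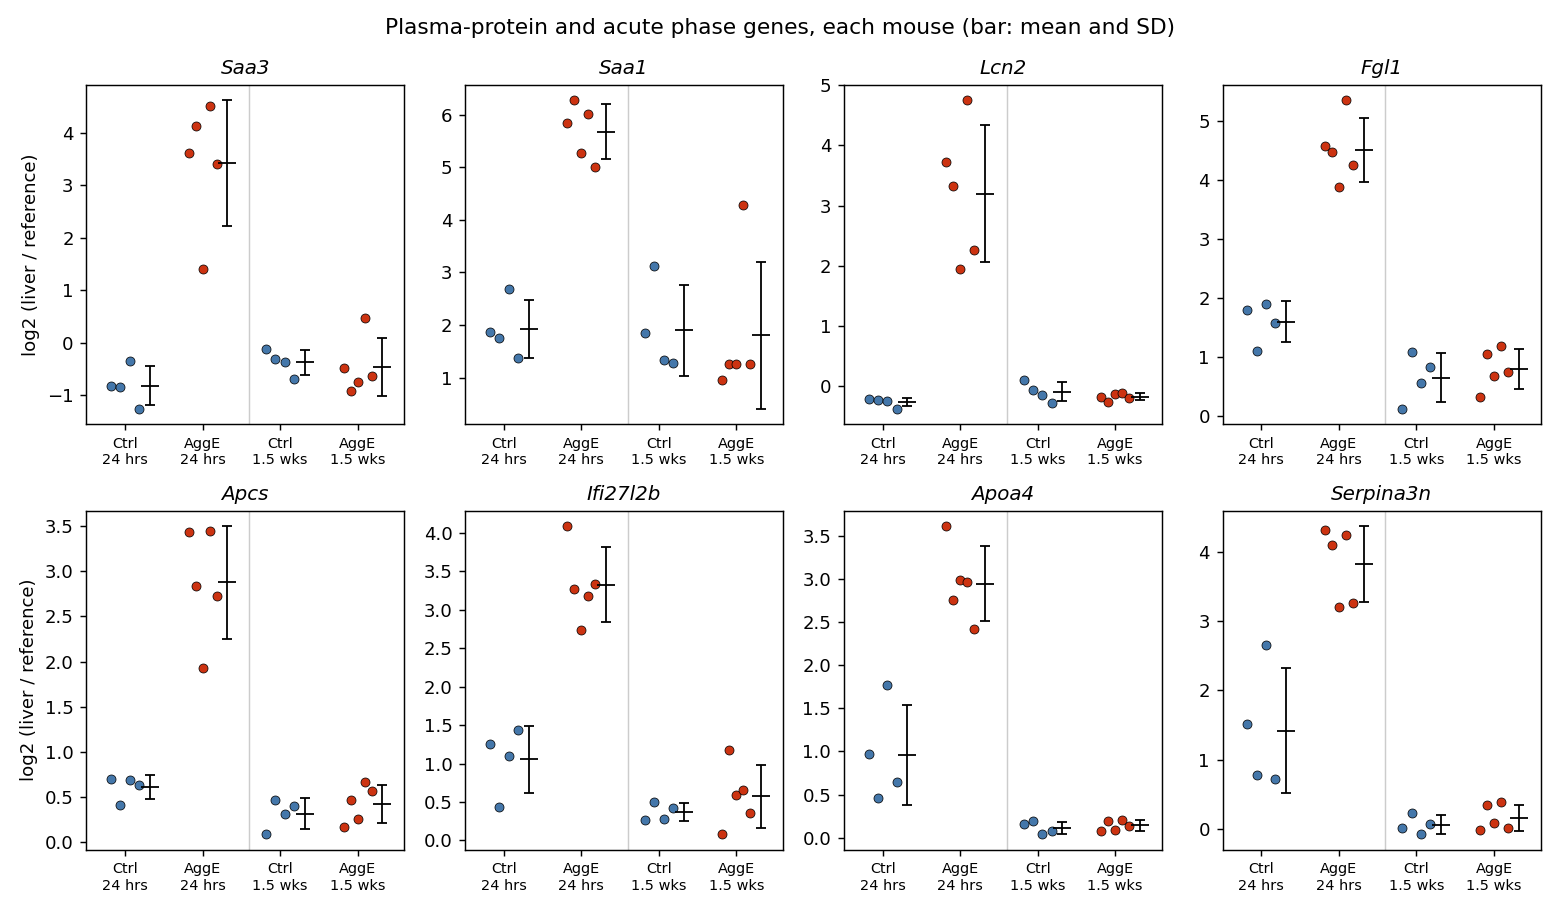
Levels (log2 of liver over reference) of Saa3, Saa1, Lcn2, Fgl1, Apcs, Ifi27l2b, Apoa4 and Serpina3n in each mouse of the 4 groups. Points are mice and bars the mean and SD. The 5 AggE mice at 24 hrs lie above all 13 others in each panel, and the AggE and Ctrl points at 1.5 wks overlap.

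At 1.5 wks the AggE minus Ctrl differences of these genes were small against their intervals: −0.09 for Saa1 (−0.98 to 0.79), 0.15 for Fgl1 (−0.55 to 0.85), 0.11 for Apcs (−0.40 to 0.62) and 0.20 for Ifi27l2b (−0.25 to 0.66). Each upper limit lies below the size measured at 24 hrs. For Saa1 the interval still allows AggE to lie nearly 2-fold below Ctrl, and somewhat less far above it. It rests on the spread shared by all groups of the fit. The mice at 1.5 wks spread more widely, with 1 AggE mouse at 4.29, so by themselves they bound the change less tightly. For Lcn2 no such bound is given, because only 1 of the 9 arrays at 1.5 wks was well above background.

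Over the whole acute phase list, 28 of 29 genes were on the array and 2 were never above background. The recovery difference was positive for 23, with a median of 0.32 against 0.0032 over all genes, and 11 passed an unadjusted p of 0.05 in the positive direction and 0 in the negative, beside 3.93% and 3.72% of all genes. The median AggE shift was 0.53 and the median Ctrl shift 0.06. In AggE mice 14 of the 28 were higher at 24 hrs and 2 lower, beside 23.2% of all genes that moved in AggE in either direction. In Ctrl mice 4 were higher and 2 lower, beside 13.4% of all genes.

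Other members fell from high levels in AggE mice while their recovery difference missed the adjusted threshold. Serpina3n, a protease inhibitor, measured 4.31, 4.10, 3.21, 4.25 and 3.27 in AggE mice at 24 hrs, 1.51, 0.78, 2.66 and 0.72 in Ctrl, and between −0.08 and 0.39 in all mice at 1.5 wks. Its AggE shift was 3.66 and its Ctrl shift 1.35 (adjusted p = 0.0327), leaving a difference of 2.31 (unadjusted p = 0.000293, adjusted p = 0.161). Of the orosomucoids, carrier proteins with near-identical copies that may share signal, Orm1 and Orm2 also moved in Ctrl. Orm2 shifted by 3.02 in AggE and by 1.51 in Ctrl (adjusted p = 0.00204), with a difference of 1.51. Orm1 shifted by 3.63 in AggE and by 2.87 in Ctrl (adjusted p = 6.29e-05), so that its difference of 0.76 had an unadjusted p of only 0.238. Orm3 shifted by 2.48 in AggE and 0.58 in Ctrl (adjusted p = 0.489). Itih3, a heavy chain of inter-alpha-trypsin inhibitor, shifted by 2.06 in AggE and 0.63 in Ctrl (adjusted p = 0.461).

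Other classical members had no such difference past the threshold. Hp, haptoglobin, had a difference of 0.16 (adjusted p = 0.963), Fgb, the fibrinogen beta chain, −0.29 (adjusted p = 0.909) and C3, the third complement component, 0.40 (adjusted p = 0.798). Hamp, the iron hormone hepcidin, was lower at 24 hrs in both groups, with an AggE shift of −1.85 (adjusted p = 1.62e-05) and a Ctrl shift of −1.44 (adjusted p = 0.00134). Serpina3m likewise was lower at 24 hrs in both, by −1.17 and −1.25. Of the 17 negative acute phase proteins, which liver secretes less of during inflammation, only Apoa4 passed an unadjusted p of 0.05, in the positive direction, beside 3.93% of all genes. The list median was 0.20, or between −0.39 and 0.31 under the other settings tried.

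Genes upstream of these products were counted beside them. Among 20 genes of interleukin-6 and STAT3 signalling, 0 were positive and 1 negative at an unadjusted p of 0.05, namely the receptor Lifr at −1.23 (unadjusted p = 0.0491). Socs3, the STAT3-induced feedback inhibitor, was lower at 24 hrs in both groups, by −1.28 in AggE and −1.64 in Ctrl, and its recovery difference of 0.36 had an unadjusted p of 0.36. Among 26 targets of TNF, IL1B and lipopolysaccharide, 0 were positive and 1 negative (Birc3, −0.23), with a median of 0.03. The counts of both lists are near the share over all genes, of which 3.93% were positive and 3.72% negative by this rule.

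The promoters of the 4 genes with the largest positive adjusted differences are printed because 3 of them are acute phase genes moved by AggE and Mt1 was moved by Ctrl. They are the 250 bases before the RefSeq start in GRCm38.p6, 5′ to 3′ along the gene, with capitals marking matches to C/EBP (TTGCNNAA), NF-kB (GGNNTTTCC), a glucocorticoid response element (ACANNNTGT) or a metal response element (TGCACNC or TGCGCNC) on either strand. STAT (TTCNNNGAA) was searched as well.
Saa3, chr7:46715677-46715926, minus strand: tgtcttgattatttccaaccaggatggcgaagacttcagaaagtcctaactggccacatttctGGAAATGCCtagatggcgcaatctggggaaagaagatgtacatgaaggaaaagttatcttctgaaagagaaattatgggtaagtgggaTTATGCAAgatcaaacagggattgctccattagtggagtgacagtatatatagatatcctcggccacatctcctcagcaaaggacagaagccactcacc
Saa1, chr7:46742981-46743230, minus strand: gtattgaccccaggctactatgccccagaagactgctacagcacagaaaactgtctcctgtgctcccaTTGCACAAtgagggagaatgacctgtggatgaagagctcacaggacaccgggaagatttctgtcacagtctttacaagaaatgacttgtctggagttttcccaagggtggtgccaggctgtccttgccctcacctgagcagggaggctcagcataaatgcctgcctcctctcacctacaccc
Lcn2, chr2:32387740-32387989, minus strand: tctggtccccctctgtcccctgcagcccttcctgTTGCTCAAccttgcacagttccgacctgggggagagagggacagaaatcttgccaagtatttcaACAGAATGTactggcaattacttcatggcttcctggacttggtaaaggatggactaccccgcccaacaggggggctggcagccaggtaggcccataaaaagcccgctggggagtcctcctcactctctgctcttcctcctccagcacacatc
Mt1, chr8:94178839-94179088, plus strand: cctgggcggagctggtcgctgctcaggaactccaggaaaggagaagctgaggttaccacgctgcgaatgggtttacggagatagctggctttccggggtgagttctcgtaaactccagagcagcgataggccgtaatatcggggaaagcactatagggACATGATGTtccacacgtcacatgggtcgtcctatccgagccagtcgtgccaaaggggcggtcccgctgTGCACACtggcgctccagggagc
All 3 acute phase promoters held a C/EBP match, at 99 bases before the start in Saa3, 182 in Saa1 and 216 in Lcn2. The Saa3 window also held an NF-kB match 187 bases before the start, and the Lcn2 window a glucocorticoid match 152 bases before it. Mt1 held a metal response element 23 bases and a glucocorticoid match 92 bases before its start.

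These matches are short and common. C/EBP letters stood in 9.56% of the 32851 mouse promoters of the same length, NF-kB in 4.93%, the glucocorticoid element in 5.84%, STAT in 7.02% and the metal response element in 21.4%. Of the 28 acute phase genes, 22 had a promoter in the table, and 12 of these held C/EBP, 6 STAT, 5 the glucocorticoid element, 3 NF-kB and 3 the metal response element. Of the 7 promoters among the metallothionein and zinc genes, 4 held a metal response element. The matches describe the letters of the windows and say nothing on binding in these livers.

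The metallothioneins Mt1 and Mt2 gave recovery differences as large as the serum amyloid genes, but there the shift that passed the threshold was that of the Ctrl mice. For Mt1 this Ctrl shift did not pass with slide as a random block, as given below. Mt1 measured −3.52, −3.67, −4.13 and −4.05 in Ctrl mice at 24 hrs and −0.53, −0.50, −1.21 and −2.46 in Ctrl mice at 1.5 wks. AggE mice measured 0.32, −0.31, −1.34, 1.31 and −0.48 at 24 hrs and −1.73, −0.67, −0.92, −1.26 and −2.24 at 1.5 wks. The 4 Ctrl mice at 24 hrs lay below all 14 others, while the AggE ranges at the 2 times overlapped.

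Mt1 in Ctrl livers was 6.36-fold higher at 1.5 wks than at 24 hrs, a shift of −2.67 (adjusted p = 0.000848), and the AggE shift was 1.26 (adjusted p = 0.0623). The latter passed without AggE mouse 3 at 24 hrs (1.57, adjusted p = 0.0233) or AggE mouse 2 at 1.5 wks (1.44, adjusted p = 0.0457) and with all mice when processed signals (1.48, adjusted p = 0.0473) or only probes above background (adjusted p = 0.0366) were used. Together they made a difference of 3.93 (SE 0.74, adjusted p = 0.0167). AggE exceeded Ctrl 13.4-fold at 24 hrs, the AggE shift made up 32.1% of the difference, and at 1.5 wks AggE minus Ctrl was −0.19 (−1.25 to 0.87). Mt2, the neighbouring and closely related gene, measured −3.96, −3.80, −4.29 and −4.16 in Ctrl mice at 24 hrs and 0.15, 0.83, −1.05 and −3.02 in Ctrl mice at 1.5 wks. Its Ctrl shift was −3.28 (adjusted p = 0.00956) and its AggE shift 1.35 (adjusted p = 0.237). The difference of 4.63 had an unadjusted p of 0.000377 and an adjusted p of 0.189, with a wide spread among the older Ctrl mice. Cross-hybridisation between Mt1 and Mt2 was not tested.

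The rest of the metallothionein and zinc list did not follow: of its 9 genes, 2 were positive and 1 negative at an unadjusted p of 0.05, beside 3.93% and 3.72% of all genes. The list median was −0.02. Mt3, the third metallothionein listed, was lower at 24 hrs in both groups, with shifts of −1.20 in AggE (adjusted p = 0.00286) and −1.18 in Ctrl (adjusted p = 0.0116), and a difference of −0.02. The negative gene was Slc39a4, a zinc importer, at −0.84, carried by a Ctrl shift of 1.26 (adjusted p = 0.000469). Among 18 glucocorticoid receptor targets Mt2 alone passed an unadjusted p of 0.05. Tat and Tsc22d3, standard glucocorticoid-induced genes, had differences of −0.05 and 0.03.

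**Figure D3:**
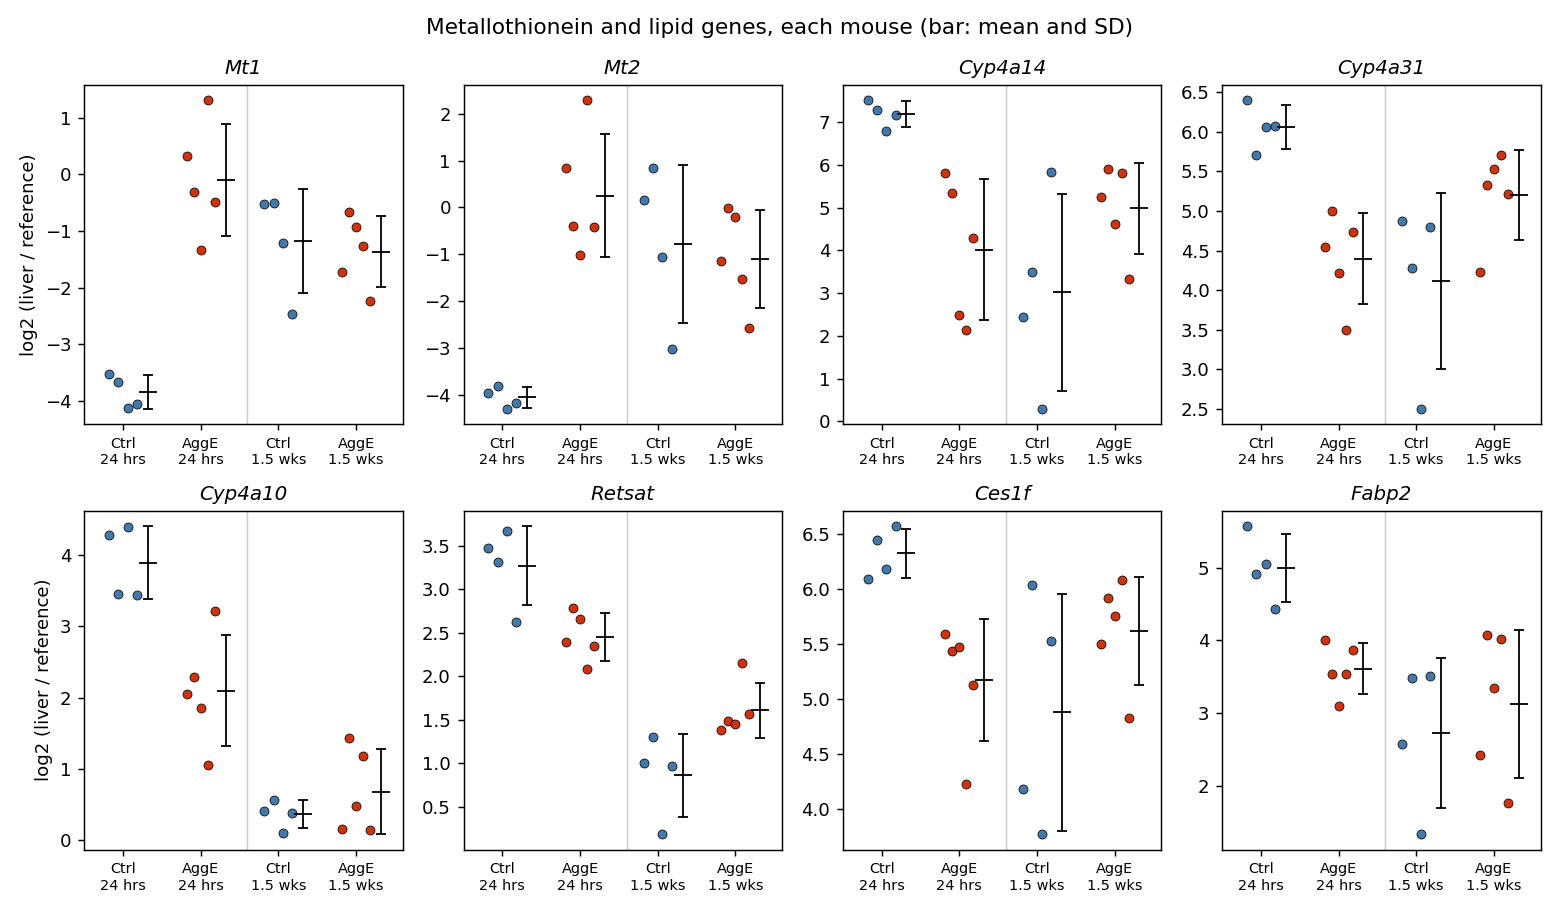
Levels (log2 of liver over reference) of Mt1, Mt2, Cyp4a14, Cyp4a31, Cyp4a10, Retsat, Ces1f and Fabp2 in each mouse of the 4 groups, with bars for the mean and SD. In the Mt1 and Mt2 panels the 4 Ctrl mice at 24 hrs lie below all 14 others, while for the Cyp4a genes, Ces1f and Fabp2 the same 4 mice are higher than all others, though only narrowly for Cyp4a31 and Ces1f.

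Fatty acid hydroxylases of the Cyp4a family led the negative genes, with the larger shift in Ctrl mice. Cyp4a31, a fatty acid hydroxylase, measured 6.40, 5.71, 6.06 and 6.07 in Ctrl mice at 24 hrs and 4.88, 4.28, 2.50 and 4.80 in Ctrl mice at 1.5 wks. AggE mice measured 4.55, 5.00, 4.21, 3.50 and 4.73 at 24 hrs and 4.23, 5.33, 5.53, 5.70 and 5.22 at 1.5 wks. The Ctrl mice at 24 hrs lay above all others, the lowest of them only just above the highest AggE mouse at 1.5 wks, and the AggE mice of the 2 times overlapped. The difference of −2.75 (SE 0.54, adjusted p = 0.0251) was made of a Ctrl shift of 1.95 (adjusted p = 0.000842) and an AggE shift of −0.80 (adjusted p = 0.108), but it turned to 0.26 with the scanner's processed signals, and a second Cyp4a31 probe gave 0.08. That probe was dimmer, with a mean log2 signal of 6.40 against 8.79.

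Cyp4a14, the most inducible of the family, spread widely. It measured 7.51, 7.30, 6.78 and 7.16 in Ctrl mice at 24 hrs and 2.43, 3.49, 0.30 and 5.84 in Ctrl mice at 1.5 wks. AggE mice measured 5.81, 5.34, 2.48, 2.14 and 4.30 at 24 hrs and 5.25, 5.91, 4.62, 5.81 and 3.33 at 1.5 wks. The Ctrl livers at 24 hrs were close together and above all others, and the other groups covered several log2 units each. The Ctrl level fell with time by a shift of 4.17 (adjusted p = 0.000479), while the AggE shift was −0.97 (adjusted p = 0.383). The difference of −5.14 (SE 1.09) just missed the adjusted threshold at 0.0538. With the processed signals the Ctrl shift was 1.62 (adjusted p = 0.264).

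For Cyp4a14 AggE lay below Ctrl at 24 hrs by 3.17 and above it at 1.5 wks by 1.97, with a 95% interval of 0.40 to 3.54 at the later time. Cyp4a31 did likewise, at −1.66 and then 1.09 (0.32 to 1.86). Neither later difference passed adjustment. Both intervals use the spread shared by all groups of the fit, which include the close Ctrl livers at 24 hrs. For Cyp4a14 the 2 groups at 1.5 wks spread more widely, so the interval is too narrow for them and the change of side is not established.

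Cyp4a10 fell in both groups. It measured 4.27, 3.45, 4.39 and 3.44 in Ctrl mice at 24 hrs, 2.06, 2.29, 1.85, 1.06 and 3.22 in AggE, and between 0.10 and 1.44 in all mice at 1.5 wks. The Ctrl shift was 3.52 (adjusted p = 2.06e-07) and the AggE shift 1.42 (adjusted p = 0.00342), leaving a difference of −2.11 (unadjusted p = 0.000282, adjusted p = 0.159). With the processed signals the shifts were 2.91 and 2.65 and the difference −0.26, and a second probe gave −0.33. This second probe was dimmer, with a mean log2 signal of 6.57 against 7.48. The Cyp4a genes are near-identical, and how far each probe reads its neighbours was not tested.

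Retsat, retinol saturase, was the other negative gene called after adjustment and 2-fold. It measured 3.47, 3.32, 3.67 and 2.62 in Ctrl mice at 24 hrs and 1.00, 1.30, 0.19 and 0.97 in Ctrl mice at 1.5 wks. AggE mice measured 2.39, 2.78, 2.66, 2.08 and 2.35 at 24 hrs and 1.39, 1.49, 1.45, 2.16 and 1.57 at 1.5 wks. Both groups fell, Ctrl by a shift of 2.41 (adjusted p = 3.83e-08) and AggE by 0.84 (adjusted p = 0.00349). The difference was −1.56 (SE 0.31, adjusted p = 0.0305).

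Ces1f, a carboxylesterase, Fabp2, a fatty acid-binding protein, and Nat8f5, of an N-acetyltransferase family, had negative differences at unadjusted p values. Ces1f had a difference of −1.89 (unadjusted p = 0.00087, adjusted p = 0.232), with a Ctrl shift of 1.44 (adjusted p = 0.00992) and an AggE shift of −0.45 (adjusted p = 0.397). Its Ctrl shift was −0.06 with the processed signals. Fabp2 had −1.78 (unadjusted p = 0.00389, adjusted p = 0.358), with a Ctrl shift of 2.27 and an AggE shift of 0.48 (adjusted p = 0.412). A second and dimmer Fabp2 probe, with a mean log2 signal of 6.85 against 8.17, gave a difference of −0.32 and a Ctrl shift of 0.33. Nat8f5 had −1.72 (unadjusted p = 0.00517, adjusted p = 0.389), with a Ctrl shift of 2.30 and an AggE shift of 0.58. Ctrl mice at 24 hrs lay outside the range of all other mice for Fabp2 and, narrowly, Ces1f but not for Nat8f5, and for 0.761% of all genes.

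The whole list of 30 PPARA targets leaned the same way: 26 differences were negative, the median was −0.35, and 5 were negative and 0 positive at an unadjusted p of 0.05, beside 3.72% and 3.93% of all genes. Besides the 3 Cyp4a genes these were Ehhadh, a peroxisomal beta-oxidation enzyme, at −1.41 (unadjusted p = 0.00962), and Acot1, an acyl-CoA thioesterase, at −1.18 (unadjusted p = 0.00154). The median Ctrl shift was 0.39 and the median AggE shift −0.08. In Ctrl mice 12 of the 30 were higher at 24 hrs and 3 lower, while in AggE mice 6 were higher and 5 lower, beside 13.4% of all genes that moved in Ctrl and 23.2% in AggE in either direction. Fgf21, the fasting hormone made under PPARA, had a difference of −0.16 and Pdk4, a brake on pyruvate oxidation, −0.45 (adjusted p = 0.847).

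SREBP targets, the genes of cholesterol and fatty acid synthesis, leaned to Ctrl as well. Of 28 on the array, 11 were higher and 0 lower at 24 hrs in Ctrl mice, beside 13.4% of all genes that moved in Ctrl, and the median Ctrl shift was 0.48. The count of 11 is near the share among genes with a probe well above background, where 2728 of 6949 moved in Ctrl in either direction. The median recovery difference was −0.18, with 2 negative and 0 positive at an unadjusted p of 0.05, beside 3.72% of all genes that were negative by this rule. Of these Me1, malic enzyme, had −0.70 (unadjusted p = 0.0103).

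The 4 negative genes past 2-fold that moved in AggE only were Csad, Elovl3, the carboxylesterase Ces1e, with an AggE shift of −1.45 and a Ctrl shift of −0.28, and a transcript without a gene symbol, at −1.01 and 0.22. Csad, which makes the taurine precursor hypotaurine from cysteine sulfinate, measured −0.26, −0.07, 0.14, −0.37 and 0.12 in AggE mice at 24 hrs and between 0.68 and 3.21 in the 13 others. The AggE mice at 24 hrs lay apart below every other mouse. The AggE shift was −1.86 (adjusted p = 8.15e-05) and the Ctrl shift −0.16 (adjusted p = 0.872). The difference of −1.70 had an unadjusted p of 0.00109 and an adjusted p of 0.245, and a second probe gave −2.15. Elovl3, a male-biased fatty acid elongase, measured 1.12, 0.82, 1.45, 3.67 and 3.23 in AggE mice at 24 hrs and between 2.23 and 5.79 in the others, so the groups overlapped. Its AggE shift was −2.32 (adjusted p = 0.007), but the difference of −2.15 (unadjusted p = 0.0276) turned to 0.46 with the processed signals, where the AggE shift was −0.71 (adjusted p = 0.288).

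Of the 16 male-biased genes, 2 were negative and 0 positive at an unadjusted p of 0.05 and the median was −0.37, between −0.80 and 0.38 under the other settings. The pair were Elovl3 and Hsd3b5, a steroid dehydrogenase of male mouse liver, at −1.67, the latter with a Ctrl shift of 2.45 (adjusted p = 0.00012) and an AggE shift of 0.78 (adjusted p = 0.146). Of 19 female-biased genes 3 were positive and 1 negative, with a median of 0.09, between −0.39 and 0.13 under the other settings. Over all genes 3.93% were positive and 3.72% negative by this rule.

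6 further genes passed adjustment with differences under 2-fold, all moved in AggE only: Olfr584 at 0.73 (adjusted p = 0.0167), Serpinb3c at 0.52 (0.0342), Svs6 at 0.43 (0.0363), Crkl at −0.43 (0.0167), Mob3a at −0.57 (0.0363) and Cdh13 at −0.58 (0.0363). They are named because they complete the 16 called. Their calls depended on the setting. Over the alternatives Crkl was called in 21 of 31, Olfr584 in 20 of 31, Serpinb3c in 12 of 31, Cdh13 in 12 of 32, Svs6 in 10 of 31 and Mob3a in 8 of 31, and the differences of Svs6 and Mob3a reached −0.32 and 0.12, of the opposite sign. Except for Cdh13, a cadherin, their probes were not well above background on all arrays of any group, and olfactory receptor and seminal vesicle genes such as Olfr584 and Svs6 are not known as liver genes. Olfr584 was above background in 2 of 5 AggE mice at 24 hrs and in 0 of 4 Ctrl mice. No AggE array at 24 hrs was well above background for Svs6, Crkl or Mob3a and only 1 was for Serpinb3c, so these differences lie at the background and are no measured changes of level.

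Several cell cycle genes were lower at 24 hrs than at 1.5 wks. Of 24 on the array, 11 were lower and 0 higher at 24 hrs in Ctrl and 5 lower and 0 higher in AggE, with median shifts of −0.51 and −0.22. Over all genes 13.4% moved in Ctrl and 23.2% in AggE, so that the AggE count is near the background. The recovery difference was positive for 21, with a median of 0.27, and 7 were positive and 0 negative at an unadjusted p of 0.05, beside 3.93% and 3.72% of all genes. Mcm6, a subunit of the replicative helicase, measured −3.38, −3.39, −3.55 and −3.31 in Ctrl mice at 24 hrs and −1.77, −2.64, −1.20 and −1.50 in Ctrl mice at 1.5 wks. Its AggE mice lay between −3.36 and −2.40 at 24 hrs and between −2.76 and −1.85 at 1.5 wks. The Ctrl groups did not overlap and the AggE groups did. The Ctrl shift was −1.63 (adjusted p = 3.2e-05), the AggE shift −0.44 (adjusted p = 0.175) and the difference 1.19 (unadjusted p = 0.00146, adjusted p = 0.278). Birc5, survivin, had 0.97 (unadjusted p = 0.00619) and Cdc20, an activator of mitotic exit, 0.75 (unadjusted p = 0.0222).

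**Figure D4:**
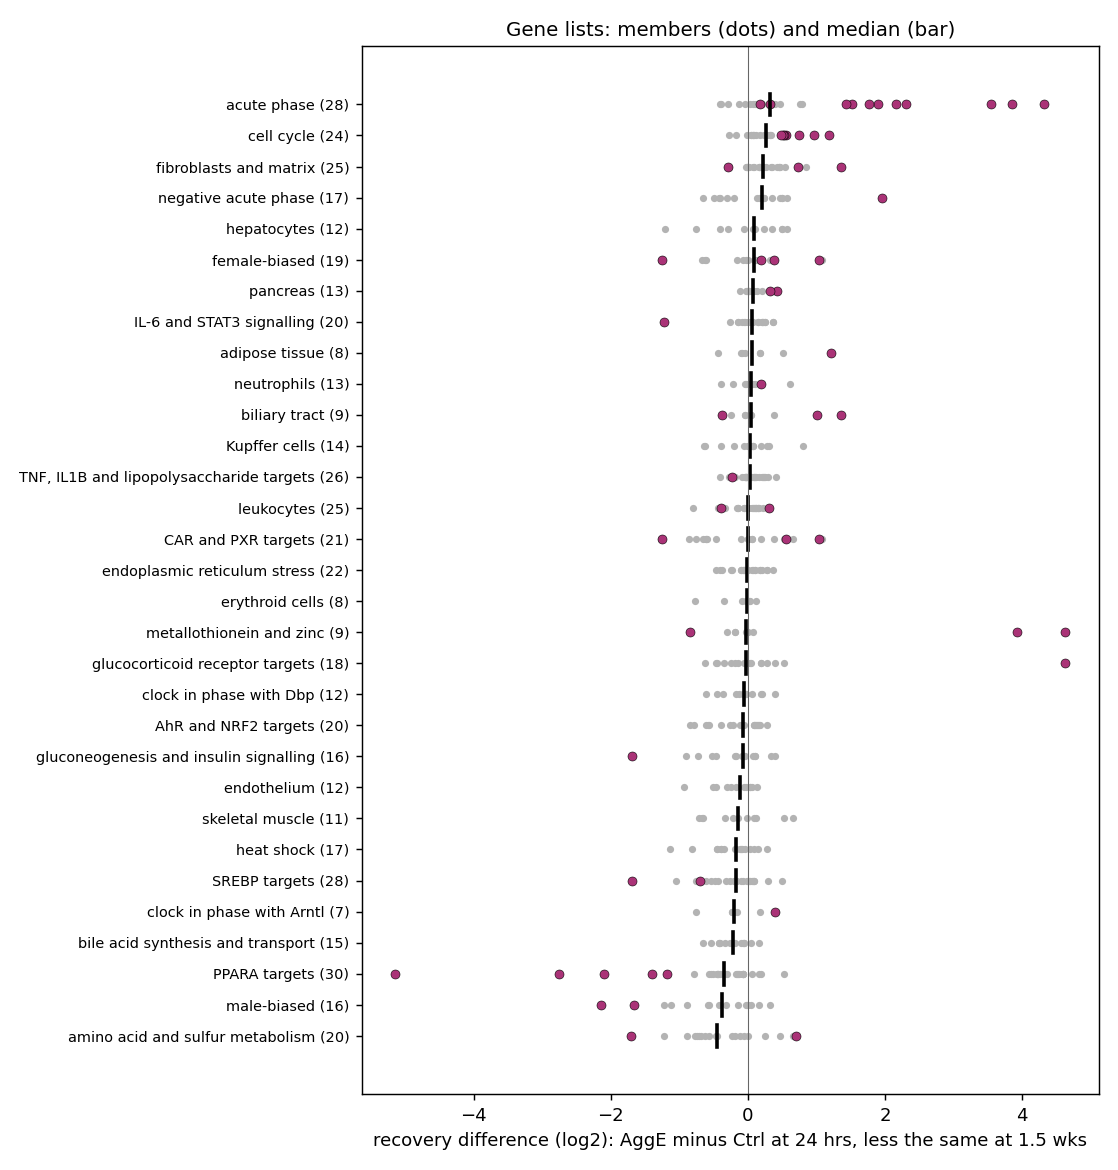
Recovery differences (log2, x axis) of the members of each fixed gene list (y axis), 1 point a gene, with purple points at an unadjusted p of 0.05 or less and a bar at the median. Acute phase members extend to 4.32 for Saa3 and PPARA targets to −5.14 for Cyp4a14, while most lists sit near 0.

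Read from the side of the 24 hrs comparison, 32 genes differed between AggE and Ctrl at 24 hrs after adjustment and past 2-fold (0.175% of all), and at 1.5 wks 0 genes did so. Without a fold limit 553 and 0 genes passed adjustment in limma at the 2 times, and 3071 and 460 an unadjusted p of 0.05. The 23 higher in AggE at 24 hrs had a median difference of 1.64 then and of 0.10 at 1.5 wks, where they ranged from −0.32 to 0.56. None of the 23 was past 2-fold at 1.5 wks. The 9 lower in AggE had a median of −1.43 at 24 hrs and of 0.10 at 1.5 wks, and only Cyp4a12a was still on the same side, at −0.32. The recovery difference was called for 9 of the 32 after adjustment and 28 passed without adjustment at 0.05. The same rules took 16 and 1397 of all 18259 genes. The 32 were chosen by their values at 24 hrs, which are also a term of the recovery difference. The medians and these counts are therefore a description with no test.

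The 4 of the 32 that did not pass even without adjustment were Cyp2b9, Acnat2, Ang2 and Cyp4a12a. Cyp2b9, a female-biased P450 induced through CAR, measured 3.02, 3.45, 1.77, 3.59 and 3.40 in AggE mice at 24 hrs and 1.41, 0.96, 1.23 and 2.02 in Ctrl. AggE minus Ctrl was 1.64 at 24 hrs and 0.56 at 1.5 wks, with a difference of 1.08 (unadjusted p = 0.0882). Spp1, osteopontin, and Tff3, a trefoil peptide, moved in AggE only. Spp1 measured −4.02, −4.15, −3.60, −3.60 and −5.47 in AggE mice at 24 hrs and between −5.81 and −5.15 in the others, so 4 of the 5 lay above. The mouse at −5.47 was the only AggE mouse of 24 hrs on a slide shared with AggE mice of 1.5 wks. Slide and time cannot be told apart for the other 4. Its difference was 1.35 (unadjusted p = 0.000518, adjusted p = 0.21), with an AggE shift of 1.30 and a Ctrl shift of −0.06. Tff3 had a difference of 1.02 (unadjusted p = 0.000592) and an AggE shift of 1.16 (adjusted p = 2.26e-05). Isyna1, inositol-phosphate synthase, had 1.28 with an adjusted p of 0.0538.

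**Figure D5:**
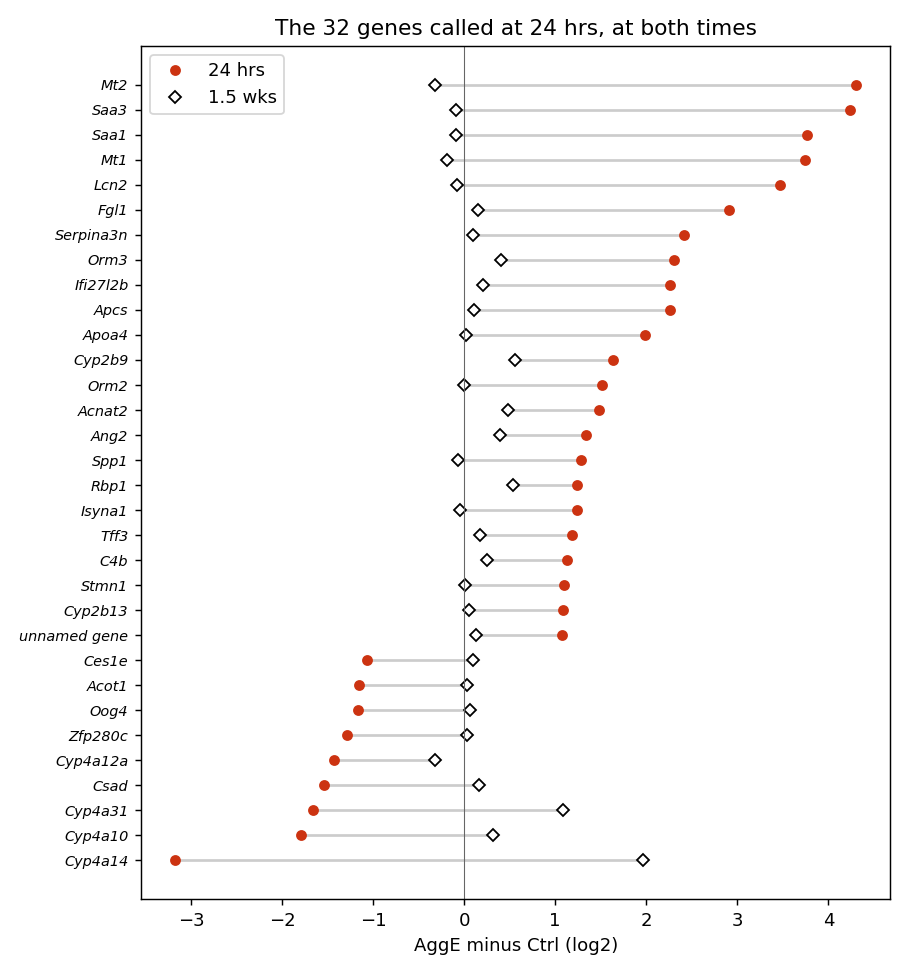
AggE minus Ctrl (log2) at 24 hrs and at 1.5 wks for the 32 genes called at 24 hrs after adjustment and past 2-fold, 1 row a gene. The 23 genes that were higher at 24 hrs lie between −0.32 and 0.56 at 1.5 wks, and Cyp4a14 and Cyp4a31 pass from the negative to the positive side.

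At 1.5 wks itself 7 genes were past 2-fold at an unadjusted p of 0.05, all higher in AggE. They included Cyp4a14 (1.97), Mat1a (1.19), Hsd11b1 (1.13), Cyp4a31 (1.09), Foxa2 (1.08) and Phlda1 (1.05), named here because they are few. Mat1a, which makes S-adenosylmethionine in liver, also fell with time in both groups, with shifts of 2.12 in AggE and 2.83 in Ctrl. Of 20 genes of amino acid and sulfur metabolism 15 differences were negative, with a median of −0.46, between −0.99 and 0.12 under the other settings. At an unadjusted p of 0.05, 1 was positive (Asns, 0.70) and 1 negative (Csad), beside 3.93% and 3.72% of all genes.

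Many genes moved with time in both groups alike. The AggE shift was called for 4229 genes, 1849 higher and 2380 lower at 24 hrs, and the Ctrl shift for 2446, 1249 higher and 1197 lower. The higher calls were 43.7% of the AggE calls and 51.1% of the Ctrl calls, but 30.5% and 30.7% without normalization between arrays and 56% and 64.9% with the submitters' own value table. By both rules 1777 genes moved in AggE and in Ctrl, with 845 higher in both and 932 lower in both, and 363 past 2-fold in both.

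Targets of the drug receptors CAR and PXR were higher at 24 hrs in both groups. Of 21, 13 were higher in AggE and 11 in Ctrl, and 0 were lower in either, beside 23.2% and 13.4% of all genes that moved in either direction. The median shifts were 1.28 and 1.24, and the median recovery difference was 0.0052, or between −0.53 and 0.17 under the other settings. Cyp3a11, the main steroid and drug hydroxylase, shifted by 1.59 in AggE (adjusted p = 0.000712) and by 2.34 in Ctrl (adjusted p = 3.17e-05), with a difference of −0.75 (unadjusted p = 0.136). Cyp2c37 shifted by 1.81 and 2.41. Cyp2b9 and Cyp2b13 leaned to AggE, with shifts of 1.86 and 1.83 there and of 0.78 and 0.80 in Ctrl.

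Many matrix genes moved the other way in both groups. Of 25 fibroblast and matrix genes, 11 were lower and 2 higher at 24 hrs in AggE, and 13 lower and 1 higher in Ctrl, beside 23.2% and 13.4% of all genes that moved, with median shifts of −0.39 and −0.40. The recovery difference was positive for 20 of the 25, with a median of 0.23. At an unadjusted p of 0.05, 2 were positive and 1 negative, beside 3.93% and 3.72% of all genes. Col1a2, a chain of type I collagen, shifted by −1.55 in AggE and −2.39 in Ctrl. Timp1, an inhibitor of matrix proteases, shifted by −0.48 and −1.20, with a recovery difference of 0.73 (unadjusted p = 0.00388, adjusted p = 0.358). In whole liver, fewer cells of a type and less RNA per cell cannot be told apart. In single Ctrl mice the mean over the CAR and PXR list was 2.92 to 3.14 at 24 hrs and 1.18 to 2.64 at 1.5 wks. For the matrix list it was −2.09 to −2.03 and then −1.70 to −1.21. Both lay nearer to the reference at 1.5 wks, whereas heat shock genes went from −0.25 to 0.24 down to −0.55 to −0.27. Whether the ratios narrowed in general was not tested.

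Markers of other cell types were read beside the acute phase result. Of 13 neutrophil genes, 0 were well above background on all arrays of a group and 6 were never so, and the mean over the list lay between −0.09 and 0.09 in AggE mice at 24 hrs and between −0.18 and −0.02 in all other mice. S100a9 measured 1.40, 0.38, 0.16, 1.22 and 1.11 in AggE mice at 24 hrs and between −0.01 and 0.48 in the others. Its partner S100a8, not above background on any of these arrays, lay the other way, between −1.53 and −0.59 in AggE mice at 24 hrs and between −0.62 and −0.06 in the others. Of the 13 recovery differences 9 were positive and 4 negative, with 1 positive and 0 negative at an unadjusted p of 0.05, and Mpo and Elane were never above background at 24 hrs. Of 25 leukocyte genes, 1 was positive and 1 negative at an unadjusted p of 0.05, with a median of 0.0054, and of 14 Kupffer cell genes 0 were. By this rule 3.93% of all genes were positive and 3.72% negative, and the counts of these 3 cell types are near that share. All 12 hepatocyte genes on the array were well above background, with list means of 5.05 to 6.14. Skeletal muscle RNA varied between single mice of every group, with list means from −0.27 to 2.58, and its part in the results was not tested.

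The arrays limit these comparisons in a way the groups do not separate. The 4 Ctrl arrays at 24 hrs were on 1 slide that held no other group of the regimen, and the AggE arrays at 24 hrs were on 2 other slides. Slide and group therefore cannot be told apart for the Ctrl shift, the 24 hrs difference or the recovery difference. With slide as a random block (correlation 0.32) only Saa3 remained called, at an adjusted p of 0.0145, and Lcn2 and Ifi27l2b had 0.0986. The differences of the acute phase genes changed little, at 3.77 for Saa1, 3.24 for Lcn2 and 2.80 for Fgl1, as did that of Ifi27l2b at 2.15. The called negative genes changed as little, at −2.56 for Cyp4a31 and −1.51 for Retsat. Several negative ones that had not been called were smaller, at −1.11 for Nat8f5, −1.29 for Fabp2 and −1.64 for Cyp4a10, and 10 in place of 40 genes were negative past 2-fold. The Ctrl shift of Mt1 was −2.68 with an adjusted p of 0.0627. The Ctrl shifts of Retsat and Cyp4a10 still passed there (0.000521 and 0.000835), whereas those of Cyp4a14 (0.129), Cyp4a31 (0.0939), Ces1f (0.45), Fabp2 (0.107), Nat8f5 (0.0715) and Apoa4 (0.416) did not, and neither did the AggE shift of Elovl3 (0.0684).

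The AggE shift can be read within a slide, since 1 AggE mouse at 24 hrs and 3 at 1.5 wks shared one. On it the shift was 3.66 for Saa3, 2.83 for Saa1, 2.41 for Lcn2, 3.53 for Fgl1, 2.36 for Apcs, 2.90 for Ifi27l2b, 2.29 for Apoa4 and −1.72 for Csad. Each passed the adjusted threshold with slide as a fixed block, but the value rests on 1 mouse at 24 hrs, which the fit assumes to vary as the other mice of the series do. For Mt1 it was 0.82 (adjusted p = 0.543), for Retsat 0.68 (adjusted p = 0.242), for Cyp4a10 2.61 (adjusted p = 0.00178), for Nat8f5 1.81 (adjusted p = 0.0305, against 0.58 without the block) and for Elovl3 −0.64 (adjusted p = 0.774), against −2.32 without the block. Between 14.8% and 47.3% of probes were well above background per array, with 15.3% to 27.8% in AggE at 24 hrs and 24.9% to 30.5% in Ctrl. The 2 highest, 47.3% and 40.5%, were the 2 arrays scanned on a later day, 1 AggE and 1 Ctrl mouse at 1.5 wks, and without them 14 genes were called for the recovery difference.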

How the data were processed

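Liver RNA (Cy5) and a common mouse reference RNA (Cy3) were hybridised to 39 Agilent arrays, of which 18 were contrasted here, with no dye swap. The intensity values were deposited by the authors as scanner output, extracted with Agilent Feature Extraction 11.5.1.1 per the labels. The log10 ratios of the deposited value table were processed by the authors before deposit, and serve as an alternative only. Per the study's methods the authors corrected background, applied LOWESS within arrays and quantile normalization between them.

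Median signals were background corrected in R 4.3.3 with limma 3.58.1 (normexp, offset 50), normalized by loess within each of the 39 arrays and by quantiles between them, with control spots (1639 of 45018) and outliers at weight 0. Spots were averaged over 41174 probes. The 25903 RefSeq probes were tested in 1 limma fit of 8 group means, with Benjamini-Hochberg adjustment over these probes, and each of 18259 genes is given by its brightest probe. A RefSeq table of GRCm38.p6 named 24375 probes. The number of arrays limits the precision. No 2 arrays held identical values, and samples are labelled as biological replicates.

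Groups come from source names and descriptions. Some titles and a description line name another regimen; source names and the other descriptions were followed.

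Genes named are those called for the recovery difference after adjustment and past 2-fold with a probe well above background on all arrays of a group, up to 15 each way; where under 5 passed, up to 8 past 2-fold and an unadjusted p of 0.05; and called members or up to 4 examples of 31 lists. Exceptions are said to be such or complete a small count. Some genes that fall under these rules are counted but not reported here. The members and lists were chosen with earlier results of these data known. The test was tried on simulated data first. Alternatives were another or no background correction, other normalizations, the submitters' value table, the 18 arrays alone, array weights, slide, scan day and replicate number as blocks, other probe choices, each mouse left out and, chosen after seeing the data, the 2 later-scanned arrays left out. The mouse numbers did not pair the samples: of 17 same-numbered pairs, 6 had deviations correlating over 0.1 (range −0.27 to 0.52).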

Additional observations from a re-analysis of the deposited data

Results flagged for a closer look

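Among 72 groups of 4 or 5 mice tested over 18 genes, 3 held a mouse far from the rest of its group, where chance gives about 1 in 20. Saa1 measured 4.29 in AggE mouse 4 at 1.5 wks, against 1.27 or less in the other 4. Retsat measured 2.16 in the same mouse, where the next value was 1.57. Lcn2 measured −0.38 in Ctrl mouse 4 at 24 hrs, where the next was −0.25 and no Ctrl array was above background. Saa3 in the AggE mouse with high Saa1 measured 0.48, the highest of its group, but was not far enough from the others by the same measure.

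The AggE minus Ctrl difference itself differed between 24 hrs and 1.5 wks after adjustment for 16 genes, by the limma contrast of the 2 differences. It was more positive at 24 hrs by 4.32 for Saa3, 3.93 for Mt1, 3.85 for Saa1, 3.55 for Lcn2, 2.76 for Fgl1, 2.16 for Apcs, 2.06 for Ifi27l2b, 1.96 for Apoa4, 0.73 for Olfr584, 0.52 for Serpinb3c and 0.43 for Svs6. It was more negative at 24 hrs for Cyp4a31 (−2.75), Retsat (−1.56), Cdh13 (−0.58), Mob3a (−0.57) and Crkl (−0.43). The slide that held the Ctrl arrays at 24 hrs held no other group, so slide and group cannot be told apart for these values.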

How the results depend on the processing

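The recovery difference was called for 16 genes after adjustment and for 64 past 2-fold and an unadjusted p of 0.05. These counts were 3 and 107 without normalization between arrays and with Aquantile, which leaves log ratios as they are, 8 and 1000 with the submitters' value table, and 18 and 1126 with the scanner's processed signals. They were 14 and 169 without background correction, 6 and 46 in a fit of the 18 arrays alone, 47 and 82 with array weights, and 1 and 27 with slide as a random block, where 63% of the 27 were positive against 37.5% of the 64 (18.7% without normalization between arrays, 20.7% without background correction). Leaving out each mouse in turn gave 8 to 23 and 44 to 113, lowest without Ctrl mouse 4 at 24 hrs and Ctrl mouse 3 at 1.5 wks, highest without AggE mouse 4 at 24 hrs and Ctrl mouse 2 at 1.5 wks. The AggE shift was called for 4229 genes, and for 1244 without normalization between arrays or with Aquantile and 2695 over the 6949 genes with probes above background (3239 to 4257 leaving out mice). The Ctrl shift was called for 2446, and for 4151 with the value table, 3857 with processed signals and 477 with slide as a random block (1549 to 2621 leaving out mice, lowest without Ctrl mouse 3 at 1.5 wks). With the replicate block, although the numbers did not pair the mice, 13 and 65 genes were called for the recovery difference, 4156 for the AggE shift and 2394 for the Ctrl shift. The processed signals turned Cyp4a31 to 0.26 and Elovl3 to 0.46.

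Over 32 alternatives Saa3 was called in 32, Saa1 in 30, Lcn2 in 29, Fgl1 and Apcs in 27, Mt1, Ifi27l2b and Apoa4 in 25, Cyp4a31 in 19 and Retsat in 18, and the 6 called genes under 2-fold in 8 (Mob3a) to 21 (Crkl). The alternatives are not independent. Aquantile repeats the fit without normalization between arrays, and those that leave out 1 mouse share nearly all their arrays. Single mice ended some calls: Mt1 without Ctrl mice 1 or 2 at 1.5 wks or Ctrl mouse 4 at 24 hrs (adjusted p of 0.0564, 0.0575 and 0.0547), Apoa4 without the last (0.0523), and Cyp4a31 and Retsat without any of 6 and 7 mice. The AggE shifts of the 7 positive genes other than Mt1 passed in every alternative. Of 991 list medians 921 moved by less than the spread between mice. The cause of these changes was not tested.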

Other observations

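Most lists not described so far held few genes with an unadjusted p of 0.05 for the recovery difference, beside 3.93% positive and 3.72% negative over all genes. Of 20 AhR and NRF2 targets, which answer xenobiotics and oxidants, 0 passed (median −0.07), and of 15 genes of bile acid synthesis and transport 0 passed, with 13 of 15 negative (median −0.22). Of 22 genes of endoplasmic reticulum stress 0 passed (median −0.01), and of 17 heat shock genes 0, with 13 negative (median −0.17). Of 16 genes of gluconeogenesis and insulin signalling 1 passed. Clock genes in phase with Dbp gave 0 of 12 and those in phase with Arntl 1 of 7 (Npas2, positive but above background in no mouse at 24 hrs), with medians of −0.05 and −0.21, the latter between −0.48 and 0.24 under the other settings.

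Among markers of other cells, 0 of 12 endothelial genes passed (median −0.11) and 0 of 8 erythroid genes (median −0.01). Of 9 biliary genes, Spp1 and Tff3 were positive and Krt7 negative (−0.38), a larger share than over all genes, and 4 were never above background. Fabp4, a fatty acid-binding protein of adipose tissue, was the 1 of 8 adipose genes that passed, at 1.21. Of 13 pancreas genes, 9 were never above background, among them the 2 that passed, Cela2a and Cela1, so no values are given. 0 of 11 skeletal muscle genes passed, while Acta1 reached 3.74 in 1 Ctrl mouse at 24 hrs and lay between −0.97 and 2.34 in the others.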
